A study of Mus musculus with 20 samples.

Results

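Solute carriers are the membrane proteins that move amino acids, sugars, ions, metals, nucleosides and other small molecules into cells and between the compartments of cells, and in the mouse their genes carry the symbol Slc. The genes described here are those with an Slc symbol followed by a number, apart from Slc2a1, Slc2a3, Slc16a1, Slc16a3, Slc40a1 and Slc4a1, that reached a mean of at least 1 RPKM over all 20 libraries. RPKM counts the reads of a transcript per kilobase of its exons and for a fixed number of mapped reads. They were 154 carriers and 5 genes that are no carriers themselves (Slc9a3r1, Slc7a6os, Slc4a1ap, Slc2a4rg-ps and Slc36a1os), of 23992 gene symbols in the files, and all are called Slc genes below. Of 372 Slc symbols, 6 were left out by name and 207 stayed below the threshold. The carriers were chosen by symbol and mean RPKM, apart from the 6 left out by name, and with earlier results of these data known. Levels are therefore given as a description. Just inside the threshold lay Slc25a35 and Slc43a1 (mean of 1.05 RPKM each) and Slc37a2 (1.08 RPKM), and just outside it lay Slc22a21 (0.973 RPKM), Slc41a2 (0.938 RPKM) and Slc2a6 (0.936 RPKM). In Tregs and in CD8+ T cells taken alone, 146 of the Slc genes reached a mean of 1 RPKM in both, 12 in Tregs only, and 1 (Slc6a19) in CD8+ T cells only.

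When T cells leave rest, they take up more amino acids, glucose, iron and phosphate, and the carriers of these nutrients are known to depend on growth signals such as IL-2. The large neutral amino acid carrier is a pair of Slc7a5 and the glycoprotein Slc3a2, whereas Slc1a5 and Slc38a2 carry glutamine and small neutral amino acids. Zinc is moved into the cytosol by the Slc39 family and out of it by the Slc30 family, and the Slc25 family serves mostly the inner membrane of mitochondria.

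The libraries come from mouse Tregs, CD4+ T cells of B6-Foxp3EGFP mice from which the GFP-positive ones were collected by cell sorting, and from CD8+ T cells isolated with a kit from C57BL/6J mice; the strain field of every sample reads C57BL/6N, and spleen and lymph node are given as the source. Cells were unstimulated, or received 200 nM IL-2, or 200 nM IL-2-REH, an IL-2 variant that acts as a partial agonist, for 90 min (1.5 hr in the labels) or 4 hr. Each of the 5 Treg conditions has replicates 1, 2 and 3, and each of the 5 CD8+ conditions has 1 library, so that the CD8+ values carry no replicate error. Nothing in the labels says whether the replicates were separate animals, and p-values therefore measure the spread between these libraries. In bulk RNA, fewer cells of a type and less RNA per cell cannot be told apart.

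Reads on genes ranged from 20201392 (IL-2 at 4 hr, replicate 3) to 63903764 per Treg library and from 38201667 to 45189835 in CD8+ T cells, and the Slc genes held between 0.717% and 0.951% of them. Unstimulated Treg replicate 1 stood apart. It lay more than 1 on the log2(RPKM + 1) scale from the mean of the other unstimulated replicates in 29 of the Slc genes (11 higher, 18 lower), against 0 to 14 genes in the other 14 Treg libraries. Slc3a2, for example, was at 82.3, 28.2 and 35.7 RPKM in unstimulated replicates 1, 2 and 3, Slc5a3 at 19.8, 4.57 and 3.899 RPKM, and Slc39a10 at 1.04, 5.22 and 4.69 RPKM. For comparisons with unstimulated Tregs, the counts of calls and the medians over all Slc genes are therefore also given without this library. Class medians, counts of groups that do not overlap and most values of single genes include it. Of the other Treg libraries, replicate 3 of IL-2 at 4 hr lay farthest out by this count, with 14 Slc genes, all lower. That library, with the fewest reads, was the lowest of the 15 Treg libraries in 48 Slc genes. It is included in the counts of calls unless stated. The 5 Treg markers summed to 505.3 to 1061 RPKM in Tregs and 12.6 to 28.3 RPKM in CD8+ T cells, while the 2 CD8 markers summed to 281.9 to 727.7 RPKM in CD8+ T cells and 4.46 to 12.7 RPKM in Tregs. The 8 erythroid markers summed to 194.1 to 340.7 RPKM in replicate 3 of the Treg groups and to 7.90 to 31.01 RPKM in replicates 1 and 2. The 5 neutrophil markers summed to 72.2 to 259.6 RPKM in replicate 3 and to 0.188 to 4.80 RPKM in the others. The 8 macrophage markers were lowest in replicate 1 (7.66 to 15.7 RPKM, against 20.3 to 88.6 RPKM) and also followed the conditions, at 15.7 to 88.6 RPKM in unstimulated Tregs, 10.5 to 41.1 RPKM at 90 min of IL-2, 13.4 to 45.3 RPKM at 90 min of IL-2-REH, 7.66 to 28.1 RPKM at 4 hr of IL-2 and 10.9 to 34.7 RPKM at 4 hr of IL-2-REH. The 5 B cell markers summed to no more than 17.6 RPKM in any Treg library. No marker of these lists was at 0 in every Treg library, and their part in the results below was not tested.

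Mitochondrial carriers made up the largest class. The 36 of them, grouped here by the Slc25 family name, held 35.1% of the summed mean RPKM of the Slc genes. The 19 amino acid carriers held 15.3%. The highest mean belonged to Slc25a3, the phosphate carrier of mitochondria, with 242.6 RPKM, followed by the ADP/ATP carrier Slc25a5 with 117 RPKM. Next came Slc9a3r1 (83.7 RPKM), a scaffold protein named after the exchanger it binds and not a carrier itself, Slc38a2 (65.4 RPKM) and the choline transporter-like Slc44a2 (47.8 RPKM). Slc3a2 (46.8 RPKM), Slc1a5 (44.2 RPKM), the ADP/ATP carrier Slc25a4 (36.4 RPKM), the endoplasmic reticulum zinc transporter Slc39a7 (29.2 RPKM) and the phosphate importer Slc20a1 (28.7 RPKM) completed the 10 highest. Exons of 43 of the Slc genes overlap those of another annotated gene, and since the sources do not state that strand was used in counting, their reads cannot be assigned with certainty. Those named here are Slc39a7, Slc20a1, Slc11a2, Slc15a3, Slc25a35, Slc25a37, Slc29a1, Slc37a1, Slc37a2 and Slc43a2, besides Slc4a2, Slc5a3, Slc7a10 and Slc30a1, whose neighbours are given below.

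The first question was which carriers respond to IL-2 in Tregs. After 4 hr of IL-2, the zinc importer Slc39a8 and the bicarbonate transporter Slc4a8 rose, and the endosomal sodium-proton exchanger Slc9a9, the small neutral amino acid transporter Slc7a10 and the Slc45 family member Slc45a4, whose relatives carry sugars with protons, fell. These 5 of the 153 carriers tested (2 higher, 3 lower), and none of the 5 other Slc genes, passed edgeR's quasi-likelihood test at an adjusted p under 0.05, against 2.27% of the 15009 genes tested. The median log2 fold change was -0.07 over the Slc genes and -0.0017 over all genes, and 67 Slc genes lay above 0 and 91 below. Without unstimulated replicate 1 the medians were 0.0050 and 0.05, with 80 Slc genes above 0 and 79 below. The groups did not overlap in 24 Slc genes, against 14.7% of all genes, and DESeq2 called 12, against 6.84% of the genes it tested. Slc6a19 had too few reads in Tregs to be tested.

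Slc39a8 (chromosome 3 of GRCm38.p6, 135816882 to 135888572) was at 0.961, 1.43 and 1.201 RPKM in unstimulated Tregs (replicates 1, 2 and 3, here and below) and at 6.14, 4.58 and 2.79 RPKM after 4 hr of IL-2. All IL-2 libraries were above all unstimulated ones, although replicate 3 was far below replicate 1. The log2 fold change was 1.99 (SE 0.34, edgeR adjusted p = 0.00825), and it was 1.94 with the replicate number as a block, a fit that compares same-numbered libraries (adjusted p = 0.00355). Slc4a8 (chromosome 15, 100761747 to 100823971), which exchanges chloride for bicarbonate with the help of sodium, went from 1.28, 2.701 and 1.98 RPKM to 4.87, 3.52 and 4.47 RPKM. Here too the groups did not overlap, with a log2 fold change of 1.23 (SE 0.24, edgeR adjusted p = 0.0201). Slc4a8 lost its call when any of IL-2 replicate 1, IL-2 replicate 3 or unstimulated replicate 3 was left out.

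Slc9a9 (chromosome 9, 94669557 to 95230453) was at 7.62, 10.2 and 11.3 RPKM in unstimulated Tregs and at 2.75, 2.56 and 0.997 RPKM after 4 hr of IL-2. It had the lowest log2 fold change of the carriers that passed, -2.15 (SE 0.36, edgeR adjusted p = 0.00773), and every IL-2 library lay below every unstimulated library. Slc45a4 (chromosome 15, 73577418 to 73645757) fell from 5.59, 8.45 and 7.099 RPKM to 3.27, 3.79 and 3.06 RPKM without overlap. Its change was smaller, -0.98, but also more even (SE 0.15, edgeR adjusted p = 0.00391). Slc7a10 (chromosome 7, 35186095 to 35201116, with exons that overlap Lrp3 on the other strand) fell from 4.05, 3.28 and 3.83 RPKM to 1.86, 1.15 and 0.729 RPKM, a log2 fold change of -1.53 (SE 0.34, edgeR adjusted p = 0.0340). Its call was lost without IL-2 replicate 2, IL-2 replicate 3 or unstimulated replicate 3. Leaving out replicate 2 or replicate 3 from every group, or fitting only the compared groups, ended all 5 calls. Over all carriers, leaving out replicate 1 from every group gave 25 calls in place of 5 (11 higher, 14 lower), against 13.4% of 14477 genes, leaving out unstimulated replicate 1 alone gave 12, against 8.87% of 15494 genes, and leaving out IL-2 replicate 3 or unstimulated replicate 3 gave 3.

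**Figure D1:**
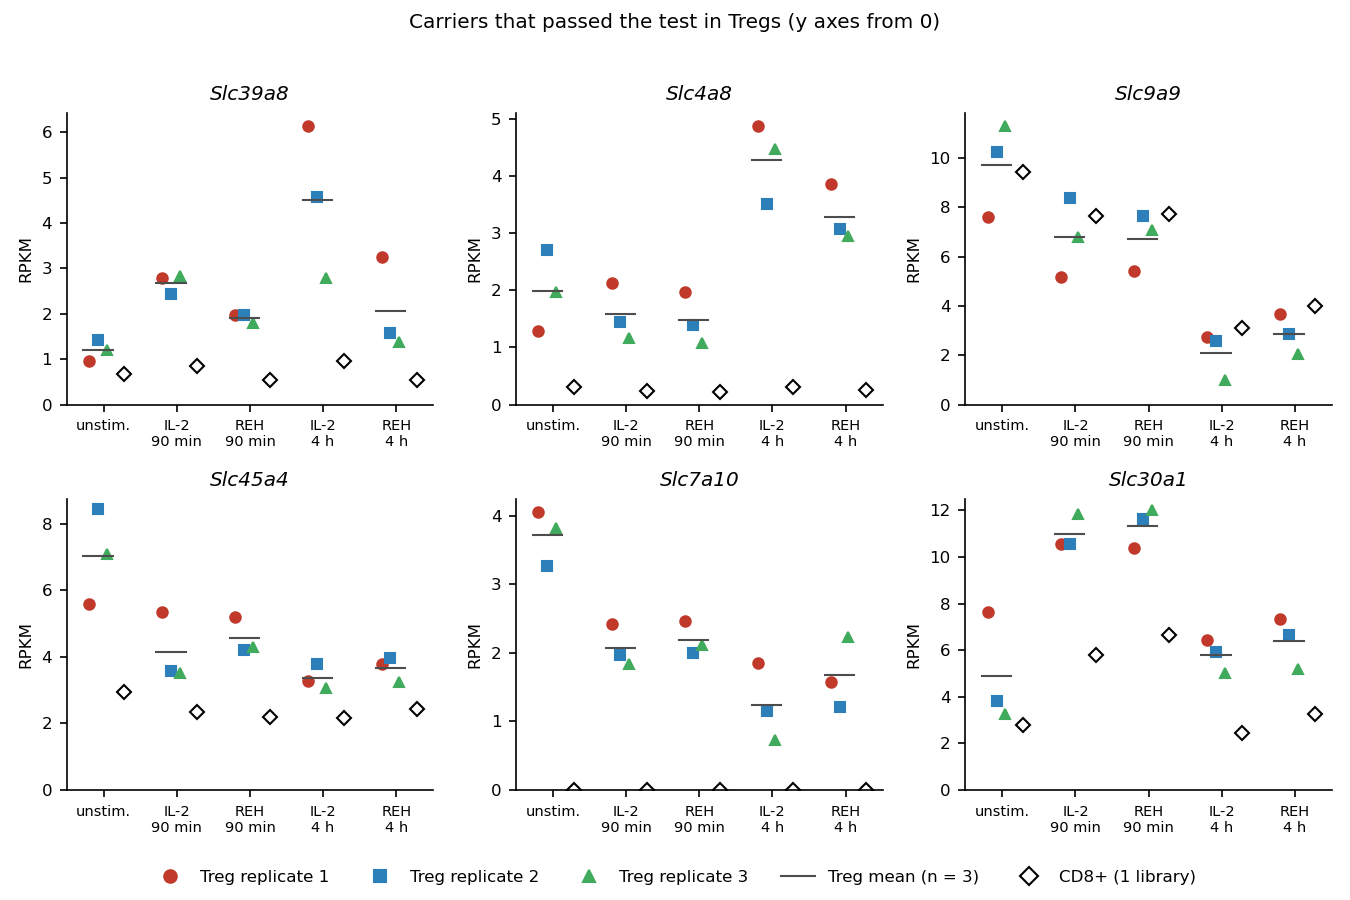
RPKM of 6 carriers in each library by condition, with each Treg replicate as its own symbol, the Treg mean of 3 as a line and the CD8+ library of the condition as an open diamond (REH is IL-2-REH). Slc39a8 and Slc4a8 stand highest in Tregs after 4 hr of IL-2, Slc9a9, Slc45a4 and Slc7a10 stand below all unstimulated Tregs at 4 hr, and Slc30a1 stands highest at 90 min of either cytokine.

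With the replicate number as a block, 15 carriers passed at 4 hr of IL-2 (5 higher, 10 lower), against 6.92% of all genes, and the 5 named above were among them. Those that rose with the block were the uncoupling protein family member Slc25a27 (log2 fold change 1.13, edgeR adjusted p = 0.0423), the fatty acid transport protein Slc27a4 (1.05, adjusted p = 0.0410) and the anion exchanger Slc4a2 (0.80, adjusted p = 0.0425), whose exons overlap Fastk. Without the block, their adjusted p-values were 0.0744, 0.112 and 0.0797. Slc25a27 was at 1.52, 3.76 and 2.31 RPKM in unstimulated Tregs and at 5.36, 4.95 and 5.09 RPKM with IL-2, without overlap. Slc27a4 went from 5.85, 4.46 and 3.33 RPKM to 6.87, 9.36 and 10.1 RPKM, also without overlap. Both were higher with IL-2 in each of the 3 same-numbered pairs.

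The carriers that the block added on the lower side came from several classes, with 2 of the 5 nucleoside carriers among them. These were the sodium-coupled importer Slc28a2 (log2 fold change -1.03, adjusted p = 0.0293) and the equilibrative transporter Slc29a1 (-0.64, adjusted p = 0.0345). Slc28a2 was at 20.2, 46.5 and 41.7 RPKM in unstimulated Tregs and at 16.2, 19.1 and 12.3 RPKM with IL-2, so that the groups did not overlap although unstimulated replicate 1 came close to the IL-2 libraries. The lysosomal transporter Slc46a3 (-1.43, adjusted p = 0.0312) and the potassium-chloride cotransporter Slc12a7 (-0.76, adjusted p = 0.0228) also fell with the block. In mitochondria, Slc25a5 (-0.71, adjusted p = 0.0472) and the iron importer Slc25a37 (-0.69, adjusted p = 0.0212), also called mitoferrin, fell, as did the glucose 6-phosphate transporter Slc37a1 (-0.71, adjusted p = 0.0232). Slc25a37, known for its high expression in erythroid cells, was at 5.25, 10.8 and 7.803 RPKM in unstimulated Tregs and at 3.44, 6.61 and 3.98 RPKM with IL-2. The part of the erythroid RNA given above, highest in replicate 3, was not tested.

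After 4 hr of IL-2-REH, only Slc45a4 passed, with 3.79, 3.98 and 3.26 RPKM, below all unstimulated libraries. Its log2 fold change was -0.92 (SE 0.15, edgeR adjusted p = 0.0223), and 0.313% of all genes passed in this comparison. The median log2 fold change was -0.05 over the Slc genes and 0.01 over all genes, and its sign over the Slc genes turned without unstimulated replicate 1 (0.05 and 0.06) and without replicate 1 of every group (0.05 and 0.02). The groups did not overlap in 23 Slc genes, against 13.7% of all genes, and DESeq2 called 8, against 4.29%. Leaving out any IL-2-REH library, or unstimulated replicate 2 or 3, ended this call and left 0 carriers, whereas leaving out unstimulated replicate 1 gave 10 Slc genes, against 6.93% of all genes, and leaving out replicate 1 from every group gave 22, against 10.7%. With the block, 8 carriers passed (1 higher, 7 lower), against 3.03% of all genes. Slc9a9, at 3.68, 2.85 and 2.04 RPKM, fell with the block (log2 fold change -1.77, adjusted p = 0.0198; 0.0562 without it). Slc27a4 rose, by 1.13 (adjusted p = 0.0469), and Slc29a1 (-1.002, adjusted p = 0.00678), Slc37a1 (-0.94, adjusted p = 0.0106) and Slc25a37 (-0.92, adjusted p = 0.00843) fell. The folate carrier Slc19a1 (-0.89, adjusted p = 0.0356) and the sodium-potassium-chloride cotransporter Slc12a2 (-0.80, adjusted p = 0.0492) fell with the block as well. Slc39a8 and Slc4a8 did not pass with IL-2-REH, with log2 fold changes of 0.81 (SE 0.33) and 0.77 (SE 0.24). Each cytokine was compared with the same 3 unstimulated libraries.

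**Figure D2:**
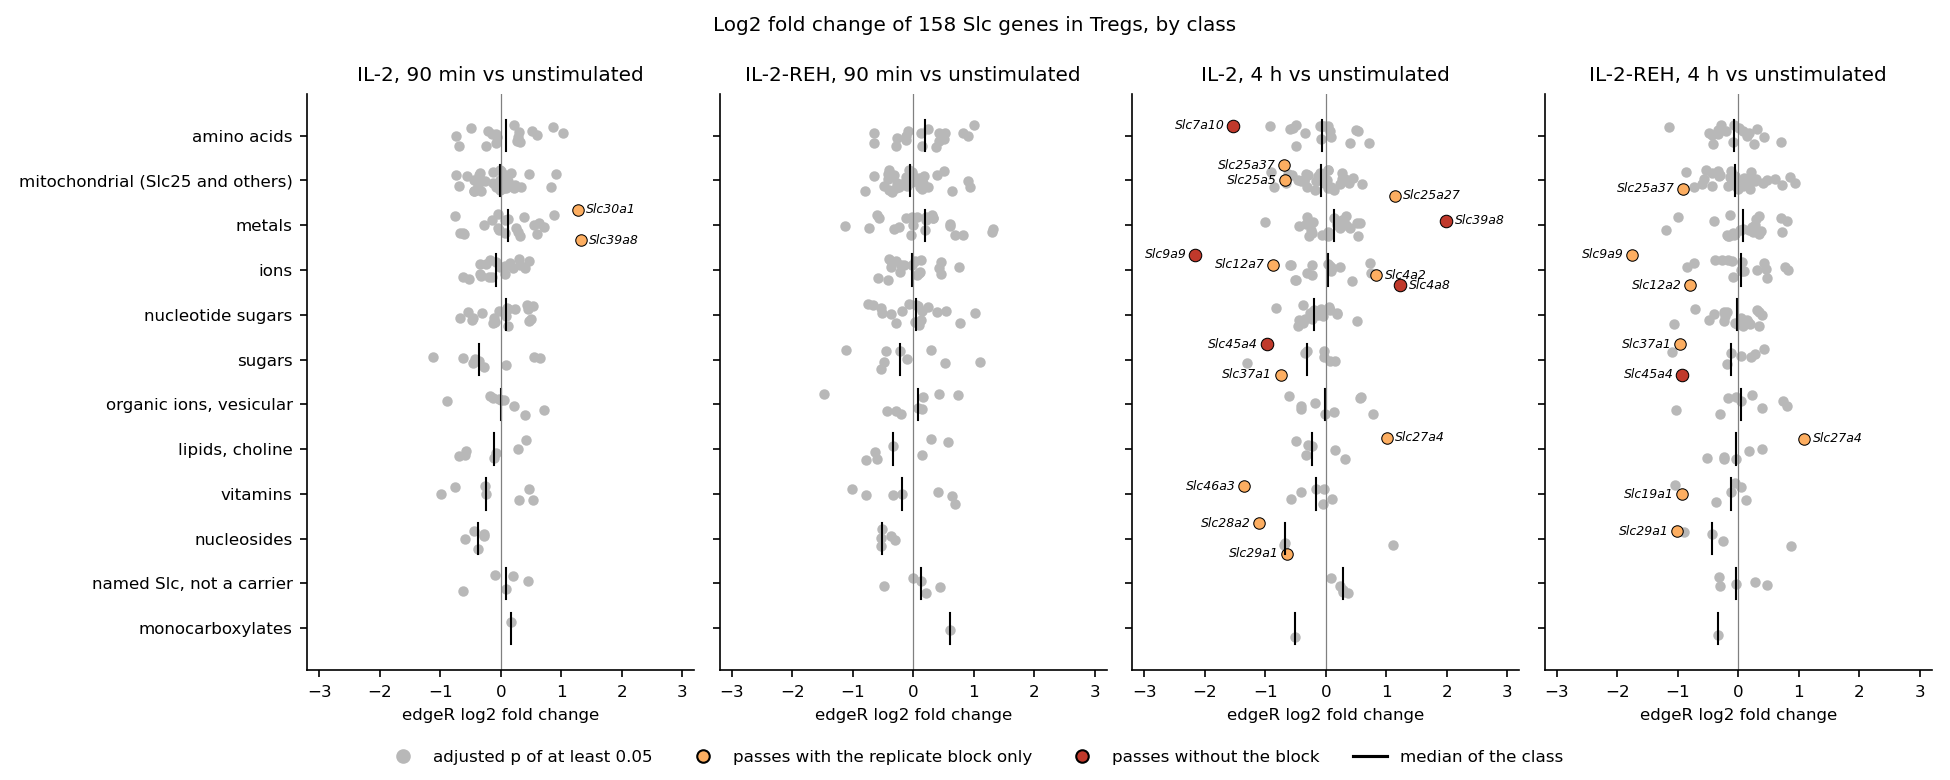
edgeR log2 fold change against unstimulated Tregs of the 153 carriers and 5 other Slc genes tested (x axis), by class of cargo (y axis), for each cytokine and time. Red points passed without the block and orange points with the replicate block only, short lines are class medians, and most points of every class lie within 1 of 0.

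The classes of cargo are described without a test. Of the 23 metal carriers, 14 lay above 0 and 9 below at 4 hr of IL-2, with a median of 0.13. The 19 carriers of the Slc35 family, grouped here by family name as nucleotide sugar carriers, lay mostly below 0 (14 of 19, median -0.20). None of them passed with or without the block. The 5 nucleoside carriers had medians of -0.37 and -0.51 at 90 min of IL-2 and IL-2-REH, where all 5 lay below 0, and of -0.68 and -0.44 at 4 hr, where 4 did. The 36 carriers of the mitochondrial class, grouped by the Slc25 family name, had medians between -0.07 and -0.02 in the 4 comparisons with unstimulated cells.

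At 90 min of IL-2, only 2 carriers passed, both of zinc and both with the replicate block alone. No carrier passed edgeR's test without the block, where 0.853% of all genes passed and 21 Slc genes had an unadjusted p under 0.05, against 13.8% of all genes. DESeq2 called 5, against 4.54% of the genes it tested. The median log2 fold change was -0.02 over the Slc genes and -0.06 over all genes (-0.04 and 0.03 without unstimulated replicate 1). With the block, the zinc importer Slc39a8 and the zinc exporter Slc30a1 passed, and no other of the 23 metal carriers did. They were 1.27% of the Slc genes tested, against 1.83% of all genes. Slc30a1 (chromosome 1, 191906697 to 191913248, with exons that overlap 1700034H15Rik on the other strand) was at 7.62, 3.83 and 3.26 RPKM in unstimulated Tregs and at 10.5, 10.6 and 11.9 RPKM at 90 min of IL-2. All 3 IL-2 libraries lay above all unstimulated ones, of which replicate 1 was the highest. The log2 fold change was 1.34 with the block (edgeR adjusted p = 0.0477), 1.27 without it (SE 0.32, adjusted p = 0.0973) and 1.98 without replicate 1 (adjusted p = 0.000530). Slc39a8 was at 2.79, 2.43 and 2.84 RPKM, above all unstimulated libraries, with a log2 fold change of 1.33 with the block (adjusted p = 0.0485) and 1.33 without it (adjusted p = 0.0935).

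With IL-2-REH at 90 min, Slc30a1 reached 10.4, 11.6 and 12.03 RPKM and Slc39a8 1.98, 1.97 and 1.79 RPKM, again above every unstimulated library. Their log2 fold changes were 1.31 (SE 0.32, edgeR adjusted p = 0.287) and 0.83 (SE 0.33, adjusted p = 0.403), which did not pass. In this comparison no carrier passed with or without the block, and 0.0933% of all genes did (0.213% with the block). An unadjusted p under 0.05 without the block was met by 24 Slc genes, against 11.4% of all genes, and DESeq2 called 1, against 0.867%. The median log2 fold change was -0.02 over the Slc genes and -0.05 over all genes (-0.0062 and 0.04 without unstimulated replicate 1). By 4 hr, Slc30a1 was at 6.43, 5.91 and 5.03 RPKM with IL-2 and 7.33, 6.66 and 5.19 RPKM with IL-2-REH, between the unstimulated libraries and those of 90 min except that unstimulated replicate 1 exceeded all of them. In CD8+ T cells, Slc30a1 went from 2.795 RPKM to 5.78 RPKM with IL-2 and 6.67 RPKM with IL-2-REH at 90 min, and back to 2.43 and 3.27 RPKM at 4 hr.

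The sequence before the starts of these zinc carriers is shown because Slc30a1 is a well known target of the metal-responsive transcription factor MTF1, which binds the metal response element. Searched on both strands of the 250 bases before each start in RefSeq (GRCm38.p6), with TGCACNC or TGCGCNC as the element, Slc30a1 and Slc39a8 each held 1 match, and Slc39a8 also held the E-box CACGTG. In each line below, 30 bases are given 5′ to 3′ on the plus strand, which is the strand of both genes, and the capitals mark the match, which for the metal response element is on the minus strand.
Slc30a1, metal response element at base 43 before the start at 191906781 (chr1:191906727-191906756, inside the gene's whole RefSeq span given above, which begins upstream, and in an intron of 1700034H15Rik on the other strand): acgggggttccGAGTGCAaagcaaagtttt
Slc39a8, metal response element at base 19 before the start at 135825657 (chr3:135825627-135825656, overlapping an exon of the gene in GENCODE M21): ttatctctaaaGGGTGCAgggcctgatctc
Slc39a8, E-box at base 71 before the same start (chr3:135825574-135825603, in an intron of the gene in GENCODE M21): ggagtgtgacacCACGTGcttcaggggcgg

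Of the Slc genes, 120 were matched to such starts, some to several. The metal response element in either form stood before 28.5% of their starts and before 21.4% of all 32851 starts, the E-box before 13.9% and 6.02%, and TTCNNNGAA, the form that STAT5 binds, before 6.33% and 7.02%. These shares describe letters and not binding, and genes with several starts count several times. All 32851 starts were taken without regard to expression, whereas the Slc genes were chosen by level, so the shares come from unlike sets.

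At 90 min the calls of the other carriers depended on replicate 1. Without that replicate in every group, 35 Slc genes passed with IL-2 (21 higher, 14 lower; edgeR adjusted p), against 17.3% of 14477 genes, and 30 with IL-2-REH (22 higher, 8 lower), against 15.7%. Without unstimulated replicate 1 alone, 19 and 25 passed, against 12.9% and 12.1%. The genes named for a call without replicate 1 were chosen after their values had been seen, apart from the amino acid carriers. The myo-inositol importer Slc5a3 had the highest log2 fold change of them with each cytokine, 2.104 (adjusted p = 0.0323) with IL-2 and 2.48 (adjusted p = 0.0190) with IL-2-REH, without replicate 1. It was at 13.4, 16.7 and 12.9 RPKM with IL-2 and 20.2, 23.2 and 15.9 RPKM with IL-2-REH, against the 19.8, 4.57 and 3.899 RPKM of unstimulated cells. Unstimulated replicate 1 thus lay above all IL-2 libraries and within the range of the IL-2-REH libraries. With all replicates its log2 fold changes were 0.66 (SE 0.59) and 1.11 (SE 0.60), and its exons overlap those of Mrps6 and Gm49711. The magnesium transporter Slc41a1 showed 1.70 and 2.19 without replicate 1 (adjusted p = 0.00479 and 0.00200), against 0.87 (SE 0.59) and 1.31 (SE 0.59) with all replicates.

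Among amino acid carriers at 90 min without replicate 1, 4 of 18 were higher with each cytokine and 1 was lower with IL-2, beside the 17.3% and 15.7% of all genes given above, and none passed with all replicates. The 4 were Slc7a5, Slc3a2, the arginine and lysine importer Slc7a1 and Slc38a2, and the lower one was Slc43a2 (log2 fold change -0.63, edgeR adjusted p = 0.0426). Slc7a5 was at 20.4, 9.91 and 9.95 RPKM in unstimulated Tregs, 12.1, 22.4 and 21.3 RPKM with IL-2 and 11.3, 28.6 and 28.2 RPKM with IL-2-REH. In replicates 2 and 3 it was higher with each cytokine, and in replicate 1 lower. Over all replicates, the IL-2 log2 fold change of Slc7a5 was 0.61 (SE 0.43, edgeR adjusted p = 0.567) and 1.44 without replicate 1 (adjusted p = 0.00187), and with IL-2-REH 0.90 (SE 0.43, adjusted p = 0.449) and 1.80 (adjusted p = 0.000776). Its partner Slc3a2 was at 59.9, 53.1 and 55.2 RPKM with IL-2 and 67.8, 60.6 and 69.5 RPKM with IL-2-REH, above unstimulated replicates 2 and 3 and below unstimulated replicate 1. Slc7a1 did not overlap, at 9.79, 9.59 and 8.02 RPKM in unstimulated Tregs against 13.1, 17.5 and 14.5 RPKM with IL-2, and still did not pass with all replicates (log2 fold change 0.87, SE 0.33, adjusted p = 0.265). Over all tested, the groups did not overlap in 15 Slc genes at 90 min of IL-2 and in 16 at 90 min of IL-2-REH, against 12.7% and 9.97% of all genes.

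**Figure D3:**
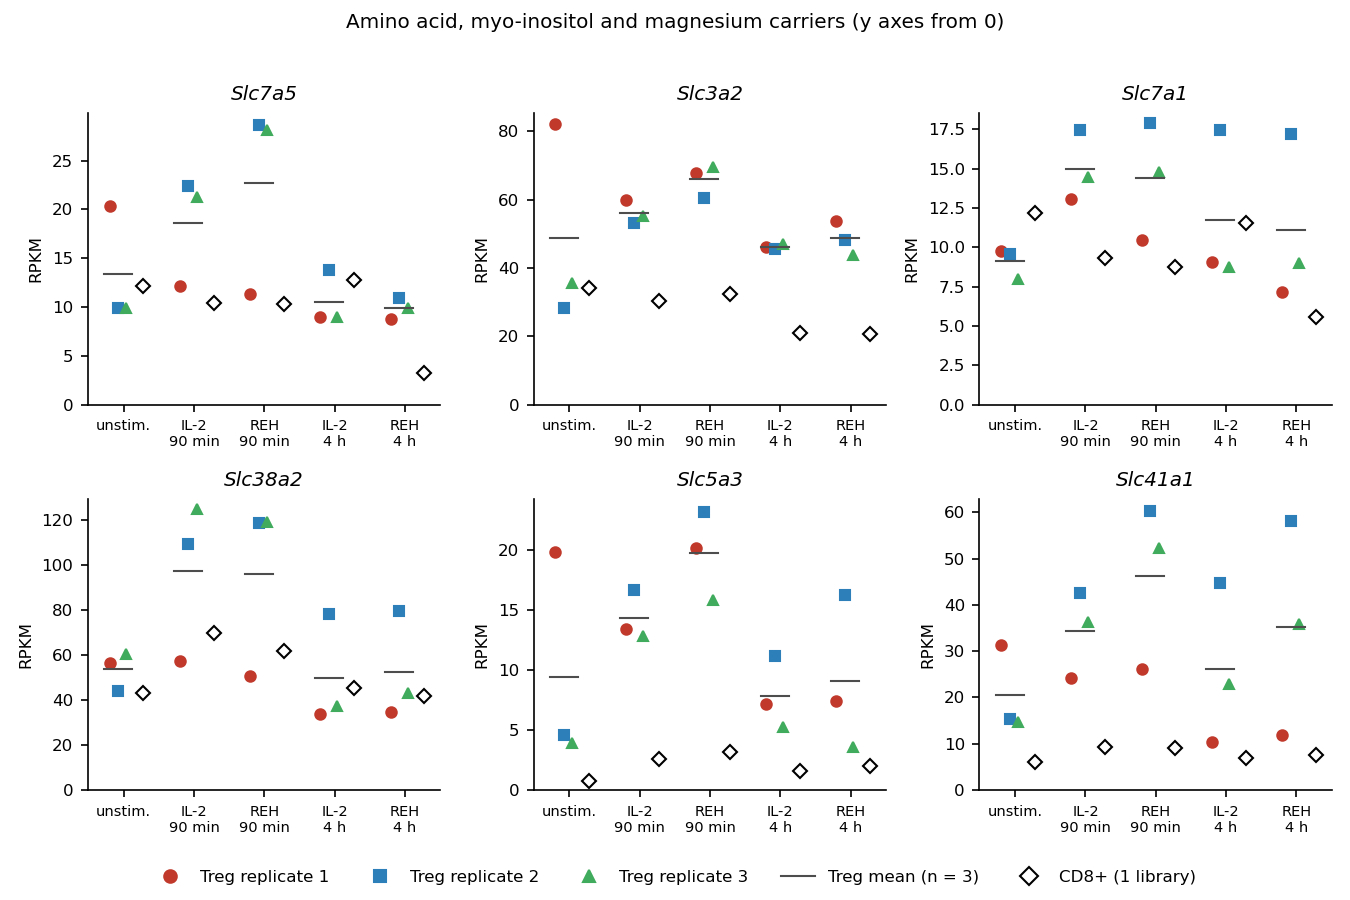
RPKM of 6 carriers of amino acids, myo-inositol and magnesium in each library by condition, with each Treg replicate as its own symbol, the Treg mean of 3 as a line and the CD8+ library as an open diamond. In unstimulated Tregs, replicate 1 lies above replicates 2 and 3 for Slc7a5, Slc3a2, Slc5a3 and Slc41a1.

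On the lower side at 90 min, again only without replicate 1, the urea transporter Slc14a1 led with log2 fold changes of -1.89 with IL-2 (edgeR adjusted p = 0.00815) and -2.26 with IL-2-REH (adjusted p = 0.00444). Its unstimulated RPKM of 1.28, 12.6 and 12.1 set replicate 1 below the others. Slc44a2 fell from 96.2 and 79.9 RPKM in unstimulated replicates 2 and 3 to 41.9 and 34.4 RPKM with IL-2 (-0.90, adjusted p = 0.0148), while replicate 1 went from 27.2 to 32.5 RPKM. Slc14a1 and Slc44a2 were also lower in the stimulated CD8+ libraries at 90 min, as given below.

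Of the other carriers known from work on T cells, Slc29a1 and Slc19a1 passed at 4 hr with the block alone, as given above, and those named here passed neither with nor without it over all replicates. Slc1a5 was at 50.05, 68.05 and 54.6 RPKM in unstimulated Tregs and at 33.1, 48.2 and 31.7 RPKM at 4 hr of IL-2, without overlap (log2 fold change -0.55, SE 0.21, edgeR adjusted p = 0.188; 0.0626 with the block). The mitochondrial folate and FAD carrier Slc25a32 (-0.65, SE 0.22, adjusted p = 0.140) and the nucleobase carrier Slc43a3 (-0.69, SE 0.23, adjusted p = 0.141) did not pass at 4 hr of IL-2. The glutamine and alanine carrier Slc38a1 (-0.50, SE 0.25), the taurine importer Slc6a6 (-0.49, SE 0.27), Slc7a6 (-0.07, SE 0.30), Slc20a1 (-0.23, SE 0.37) and the iron importer Slc11a2 (0.13, SE 0.25) did not either. The zinc importer Slc39a10 gave -1.12 (SE 0.49, adjusted p = 0.418) at 90 min of IL-2-REH. Slc7a11, the cystine carrier, stayed under the threshold on the mean level.

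The second question was whether IL-2-REH and IL-2 differ. In Tregs, 0 of the 153 carriers and 5 other Slc genes passed edgeR's test at 90 min or at 4 hr, with or without the block or replicate 1, and DESeq2 also called 0 (0.0698% and 0.401% of all genes it tested), while 0.0133% and 0.0267% of all genes passed (0.0133% and 0.0666% with the block). At an unadjusted p under 0.05, there were 2 Slc genes at 90 min and 2 at 4 hr, against 0.993% and 3.72% of all genes, and with the block 2 and 6, against 1.75% and 6.2%. The median difference was 0.02 at 90 min and 0.08 at 4 hr on the log2 scale over the Slc genes, and 0.02 and 0.01 over all genes. A p that misses the threshold does not show that the cytokines act alike, and the standard error of the difference had a median of 0.29 over the Slc genes at each time. The lowest difference belonged to Slc39a8 at 4 hr, at 3.24, 1.57 and 1.38 RPKM with IL-2-REH against 6.14, 4.58 and 2.79 RPKM with IL-2. It was lower in each same-numbered pair, but the groups overlapped, and the log2 difference of -1.18 (SE 0.33, unadjusted p = 0.00287) had an adjusted p of 0.659 and of 0.250 with the block.

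Slc35g1 and the neutral amino acid carrier Slc43a2 had the lowest unadjusted p at 90 min. Slc35g1 was at 6.27, 7.08 and 7.13 RPKM with IL-2 and 4.46, 4.24 and 3.81 RPKM with IL-2-REH, so that every IL-2-REH library was below every IL-2 library (log2 difference -0.73, SE 0.32, unadjusted p = 0.0395). Slc43a2 was at 4.39, 5.61 and 5.45 RPKM with IL-2 and 6.51, 7.83 and 8.75 RPKM with IL-2-REH, also without overlap, in the opposite direction (log2 difference 0.58, SE 0.22, unadjusted p = 0.0205). Neither passed after adjustment over 15009 genes by edgeR. Groups did not overlap in 9 Slc genes at each time, against 5.46% of all genes at 90 min and 7.79% at 4 hr, so these counts lie near those of all genes.

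Between 90 min and 4 hr, no carrier passed edgeR's test without the block with either cytokine, nor did any of the 15009 genes (0% of them); 25 Slc genes had an unadjusted p under 0.05 for IL-2 and 29 for IL-2-REH (47 with the block), against 17%, 14.6% and 21.6% of all genes, and DESeq2 called 6 and 4, against 3.19% and 1.98%. With the block, Slc4a8 rose between the times of IL-2 by 1.42 (edgeR adjusted p = 0.0284), against 0.386% of all genes, and no Slc gene passed for IL-2-REH, against 0.04%. It was at 2.13, 1.44 and 1.17 RPKM at 90 min and at 4.87, 3.52 and 4.47 RPKM at 4 hr, without overlap. The median log2 fold change between the times was -0.16 over the Slc genes and 0.03 over all genes for IL-2, and -0.05 and 0.04 for IL-2-REH, and the groups did not overlap in 19 and 31 Slc genes, against 17.1% and 19.1% of all genes. Without replicate 1, 11 Slc genes passed with each cytokine, against 4.32% and 3.96% of all genes. Slc9a9, Slc30a1 and Slc7a5 were lower at 4 hr than at 90 min, and Slc4a8 and Slc25a27 higher, with each cytokine in these fits. The log2 fold changes of Slc7a5 were -1.14 with IL-2 (adjusted p = 0.0229) and -1.66 with IL-2-REH (adjusted p = 0.0122).

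In CD8+ T cells, 147 of the Slc genes had a mean of at least 1 RPKM and were compared by the log2 ratio of RPKM + 1, which has no replicate check. With 90 min of IL-2, 9 passed an absolute log2 ratio of 1 (3 higher, 6 lower), against 7.24% of 10021 genes. Slc14a1 had the lowest ratio, from 15.1 RPKM to 1.66 RPKM, and the urate transporter Slc2a9, Slc11a2, Slc44a2, Slc46a3 and Slc35c2 followed, with ratios from -1.28 to -1.03. Slc44a2 went from 93.2 to 41.3 RPKM and Slc11a2 from 15.3 to 5.85 RPKM. Higher were the copper transporter family member Slc31a2 (log2 ratio 1.08), Slc5a3 (1.04) and Slc27a4 (1.02). With 90 min of IL-2-REH, 14 passed (4 higher, 10 lower), against 8.57%, with Slc14a1 at 0.888 RPKM and Slc5a3 at 3.21 RPKM, against 0.728 RPKM in unstimulated cells. The stimulated libraries at these times share 1 unstimulated library, which enters every ratio. There the 8 macrophage markers summed to 39.8 RPKM, against 13.3 to 21.1 RPKM in the stimulated CD8+ libraries. The 5 B cell markers summed to 10.7 RPKM, against 3.29 to 5.34 RPKM. Cd3e, Cd3d and Cd3g summed to 750.9 RPKM, against 410.9 to 486.2 RPKM. The 5 neutrophil markers, at 1.86 RPKM, lay within the stimulated range of 0.342 to 2.01 RPKM. The part of these differences in the ratios was not tested.

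After 4 hr, 7 CD8+ carriers passed with IL-2 (3 higher, 4 lower), against 4.71% of genes, and 8 with IL-2-REH (2 higher, 6 lower), against 6.11%. The highest log2 ratio with IL-2 was that of Slc30a4 (1.655, against -0.03 with IL-2-REH). The lowest with IL-2-REH were those of Slc14a1 (-1.74, against -1.08 with IL-2) and Slc7a5 (-1.62, against 0.07 with IL-2). Slc9a9 went from 9.43 RPKM to 3.103 RPKM with IL-2 and 3.98 RPKM with IL-2-REH. Slc25a27 went from 2.31 RPKM to 5.79 and 8.64 RPKM, and Slc27a4 from 3.21 RPKM to 7.43 and 7.63 RPKM. In Tregs, Slc9a9, Slc25a27 and Slc27a4 lay on the same side of the unstimulated cells at 4 hr in each same-numbered pair. The tests are given above, and for Slc25a27 with IL-2-REH the edgeR adjusted p was 0.113 with the block. The zinc transporter Slc39a11 was at 5.95 RPKM before and at 2.22 and 1.61 RPKM after 4 hr. Between 90 min and 4 hr, 3 carriers passed for IL-2 and 4 for IL-2-REH, against 2% and 1.89% of genes. Slc14a1 (log2 ratio 1.52 for IL-2 and 1.35 for IL-2-REH) and Slc39a10 (1.18 and 1.17) were higher at the later time with each cytokine.

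Between the CD8+ libraries of IL-2-REH and IL-2 at 4 hr, 4 of 147 Slc genes passed a log2 ratio of 1, against 2.23% of genes, and among them 1 amino acid carrier, Slc7a5. It was at 12.8 RPKM with IL-2 (3036 reads) and at 3.27 RPKM with IL-2-REH (833 reads), a log2 ratio of -1.69, and it was at 12.1 RPKM in unstimulated cells and at 10.4 and 10.3 RPKM at 90 min. Slc7a1 was at 11.5 RPKM with IL-2 and 5.56 RPKM with IL-2-REH, short of the threshold (log2 ratio -0.94). Slc6a19 (0.996) and Slc43a2 (0.84) lay short of it on the other side, higher with IL-2-REH. Besides Slc7a5, the zinc transporter Slc30a4 (12.7 RPKM with IL-2, 3.26 RPKM with IL-2-REH) and Slc35g1 (11.7 and 4.098 RPKM) were lower with IL-2-REH, and the anion transporter Slc26a11 (4.71 and 12.2 RPKM) was higher. At 90 min, 1 passed, Slc35g1, at 8.34 RPKM with IL-2 and 3.08 RPKM with IL-2-REH, against 0.868% of genes. Slc30a4 (-0.96) and Slc26a11 (0.77) had ratios on the same side at 90 min as at 4 hr. In Tregs, the differences between the cytokines at 4 hr were -0.15 (SE 0.43) for Slc7a5, -0.14 (SE 0.33) for Slc7a1, -0.30 (SE 0.33) for Slc30a4, -0.49 (SE 0.32) for Slc35g1 and 0.20 (SE 0.32) for Slc26a11. The difference between the cell types was not tested.

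**Figure D4:**
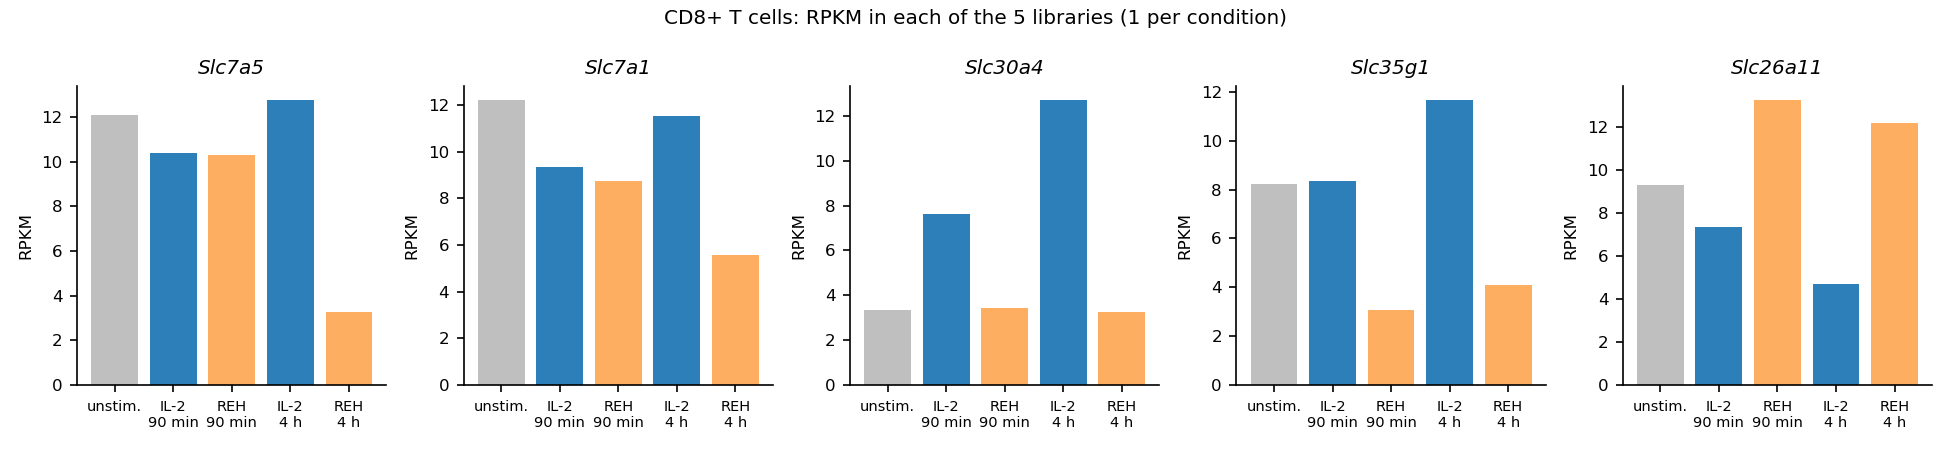
RPKM of 5 carriers in the CD8+ libraries, with 1 library and 1 bar per condition (grey unstimulated, blue IL-2, orange IL-2-REH) and no error. Slc7a5 and Slc7a1 are lowest at 4 hr of IL-2-REH, Slc30a4 and Slc35g1 are higher with IL-2 than with IL-2-REH at each time, and Slc26a11 is lower.

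The cell types also differed in level. All 5 CD8+ libraries lay on the same side of all 15 Treg libraries, with a log2 ratio of the means + 1 past 1, in 18 carriers (4 higher and 14 lower in CD8+ T cells), against 6.73% of 10457 genes (1.55% higher, 5.18% lower). Of the 146 Slc genes with a mean of at least 1 RPKM in each cell type, 11 were separate in this way, and the other 7 reached the threshold through 1 cell type. A share of all genes is not given for this narrower set. The 6.73% also covers genes that reached the threshold through 1 cell type. The median log2 ratio was -0.08 over the Slc genes and -0.08 over all genes. Slc6a19, the neutral amino acid transporter known from kidney and intestine, was at 15.1 to 31.1 RPKM in CD8+ T cells and at no more than 0.115 RPKM in Tregs. It reached the threshold on the mean level through CD8+ T cells alone, so that a higher level there was built into its choice. Slc12a7 was at 45.5 to 73.1 RPKM in CD8+ T cells and at 5.102 to 24.3 RPKM in Tregs, Slc26a11 at 4.71 to 13.2 against 1.18 to 3.98 RPKM, and Slc30a4 at 3.26 to 12.7 against 0.9395 to 2.905 RPKM.

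Lower in CD8+ T cells were the nucleotide sugar transporter Slc35d1 (2.24 to 4.55 RPKM, against 12.03 to 43.8 RPKM in Tregs), the peptide transporters Slc15a2 (0.585 to 1.62, against 5.44 to 16.0 RPKM) and Slc15a3 (0.124 to 0.233, against 1.43 to 8.81 RPKM), Slc5a3 (0.728 to 3.21, against 3.56 to 23.1 RPKM) and Slc41a1 (6.07 to 9.201, against 10.4 to 60.3 RPKM). Slc7a10 was listed at 0 in 4 of the 5 CD8+ libraries and at 0.7295 to 4.05 RPKM in Tregs. Slc39a8 and Slc4a8, which rose with IL-2 in Tregs, were at 0.547 to 0.953 and 0.212 to 0.311 RPKM in CD8+ T cells. Slc7a10, Slc15a3, Slc39a8 and Slc4a8 reached the threshold on the mean level through Tregs alone, so that a lower level in CD8+ T cells was built into their choice. The cell types were isolated from different mice and by different methods, so cell type and isolation cannot be told apart. Leaving out replicate 1, 2 or 3 of the Tregs gave 17 to 22 separate Slc genes, for which shares of all genes are not given.

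**Figure D5:**
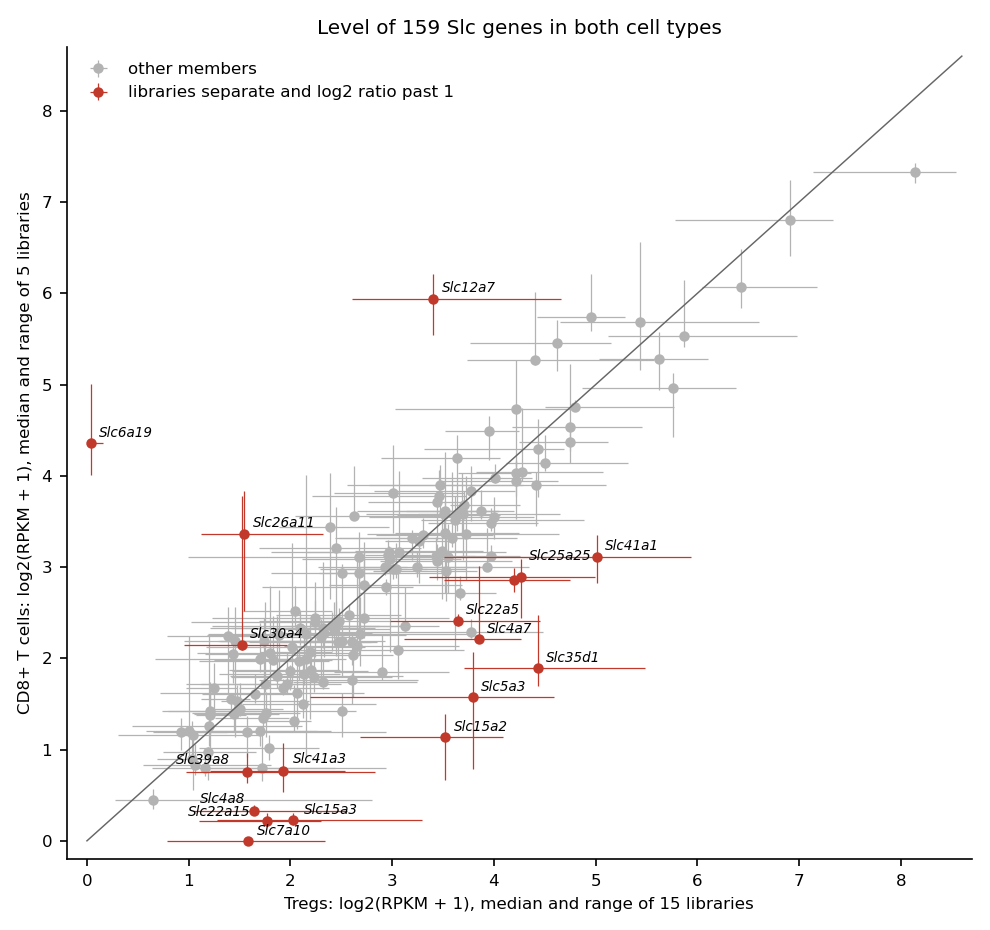
Level of the 154 carriers and 5 other Slc genes in Tregs (x axis, median and range of 15 libraries) and CD8+ T cells (y axis, median and range of 5 libraries) as log2(RPKM + 1), with the line of equal level. Red points are the 18 carriers whose libraries do not overlap between the cell types and whose log2 ratio of means passes 1 (most are named), with Slc6a19 and Slc12a7 farthest above the line and Slc35d1 and Slc15a2 farthest below. Slc6a19 reached the threshold on the mean level through CD8+ T cells alone.

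Carriers and partners with other names, and regulators of nutrient transport, were followed as lists. Of the 22 carriers and partners tested in Tregs, the mitochondrial uncoupling protein Ucp2 fell after 4 hr of IL-2 (log2 fold change -1.36, edgeR adjusted p = 0.0173), and no other passed in any comparison without the block. With the block, the lysolipid transporter Mfsd2a rose at 90 min of IL-2 (2.02, adjusted p = 0.0244), the organic anion transporter family member Slco3a1 fell at 4 hr of IL-2 (-0.61, adjusted p = 0.0250) and Ucp2 fell at 4 hr of IL-2-REH (-1.05, adjusted p = 0.0371). Of the 14 regulators, none passed without the block. With it, the transcription factor Myc rose with IL-2 at 90 min (2.02, adjusted p = 0.000198) and 4 hr (1.44, adjusted p = 0.00118), and Txnip, an inhibitor of glucose uptake, fell at the same times (-1.15 and -1.17, adjusted p = 0.0130 and 0.00594) and at 4 hr of IL-2-REH (-0.90, adjusted p = 0.0356). The zinc-binding metallothioneins Mt1 and Mt2 had log2 fold changes of 0.83 (SE 0.75) and 0.90 (SE 0.69) at 90 min of IL-2 and did not pass, nor did the metal-responsive factor Mtf1 (-0.32, SE 0.19).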

How the data were processed

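RNA-seq libraries of 15 Treg and 5 CD8+ T cell samples were used. For each transcript the authors deposited read counts and RPKM, which scale the reads to exon length and depth. The submitters' processing notes name Bowtie2 2.2.6, TopHat2 2.1.1, SAMtools 0.1.8, bedtools 2.25.0 and edgeR, with the mm10 build. By the study's methods, uniquely mapped reads on exons were counted. Whether strand was used is not given in the sources used here.

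Per symbol, the transcript with most reads was kept. Counts of the 15 Treg libraries were fitted together with edgeR 4.0.16 (TMM scaling, filterByExpr, quasi-likelihood test, Benjamini-Hochberg adjustment over 15009 genes, threshold 0.05), in R 4.3.3, after a test on simulated data. CD8+ T cells, with 1 library per condition, were compared by the log2 ratio of RPKM + 1 without a test. Replicate numbers paired the Treg libraries: over 15009 genes, deviations from group means correlated at 0.54 on average for the same number (0.12 to 0.84 over 30 pairs). For different numbers the mean was -0.26, which largely follows from the first value, since the deviations within each group cancel out. The fit with the number as a block is therefore given where it changed a call. Alternatives were DESeq2 1.42.0, limma 3.58.1 on log2(RPKM + 0.1) and log2(RPKM + 1), a mean of at least 5 RPKM or no filter, fits of the compared groups alone, and leaving out libraries; fits without a replicate that keep the block were added after seeing the data.

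Carriers, lists and rules were chosen with earlier results of these data known. Named were the carriers that passed in a comparison (up to 15 each way, and 5 each way of those the block added), the 8 highest and 8 lowest CD8+ ratios, the 10 highest means, the 5 carriers most above and most below in CD8+ against Tregs, 18 carriers known from T cells (1 of them is not reported here), and those at the threshold. Gene coordinates and starts are RefSeq's for GRCm38.p6, the patched form of the mm10 build, and exon overlaps are from GENCODE M21. Totals per library are given with the results, and larger totals give smaller counting error.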

Additional observations from a re-analysis of the deposited data

Results flagged for a closer look

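Slc4a8 rose in the Treg pairs at 4 hr of IL-2 and was almost unchanged in CD8+ T cells. Its log2 ratio of RPKM + 1 was -0.00431 in the CD8+ pair of libraries, where it was at 0.311 and 0.307 RPKM. In the 3 same-numbered Treg pairs the ratio was 0.287 to 1.36. At so low a CD8+ level, a ratio of RPKM + 1 moves little for a given fold change. Slc12a2 differed in direction at 4 hr of IL-2-REH, with 0.462 in the CD8+ libraries (1.98 and 3.101 RPKM) and -0.922 to -0.315 in the Treg pairs. With 1 CD8+ library per condition, neither difference was tested.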

How the results depend on the processing

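No call of a named carrier changed sign under any alternative. The median over the Slc genes turned sign at 4 hr without unstimulated replicate 1, as given above. The counts of Slc genes called in Tregs did change. DESeq2 called 5 (IL-2 at 90 min), 12 (IL-2 at 4 hr), 1 (IL-2-REH at 90 min), 8 (IL-2-REH at 4 hr), 6 (IL-2, 4 hr against 90 min) and 4 (IL-2-REH, 4 hr against 90 min), with the shares of all genes given above. The replicate block called 2 for IL-2 at 90 min, 15 for IL-2 at 4 hr, 8 for IL-2-REH at 4 hr and 1 for 4 hr against 90 min of IL-2, and it changed no other call of a comparison. For IL-2 at 90 min, limma on log2(RPKM + 0.1) and on log2(RPKM + 1) called 1 each. For IL-2 at 4 hr, genes of at least 5 RPKM gave 1 and a fit of only the compared groups 0. For IL-2-REH at 4 hr, genes of at least 5 RPKM, limma on log2(RPKM + 0.1) and a fit of only the compared groups gave 0, and no filter gave 2. Shares of all genes are not given for the counts from limma, without a filter, from genes of at least 5 RPKM or from only the compared groups. These counts describe the Slc genes alone. The cause of these changes was not tested.

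Leaving out libraries gave 0 to 48 Slc genes for IL-2 at 90 min, 0 to 39 for IL-2 at 4 hr, 0 to 47 for IL-2-REH at 90 min, 0 to 30 for IL-2-REH at 4 hr, 0 to 19 and 0 to 16 for 4 hr against 90 min of IL-2 and IL-2-REH, 0 to 0 for IL-2-REH against IL-2 at either time, and 17 to 22 for CD8+ against Treg level. The highest of the Treg values leave out replicate 1 with the block, chosen after seeing the data. Without replicate 1 and without the block the counts were 35, 25, 30, 22, 11 and 11 in the same order. Of all genes, 17.3%, 13.4%, 15.7%, 10.7%, 4.32% and 3.96% passed in these fits. Without replicate 2 or 3 the counts were 0. Shares of all genes are not given for the ranges, which describe the Slc genes alone and do not set them apart.

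In CD8+ T cells, in the order IL-2 at 90 min, IL-2 at 4 hr, IL-2-REH at 90 min and IL-2-REH at 4 hr, a log2 ratio past 2 was met by 1, 0, 1 and 0 Slc genes and genes of at least 5 RPKM gave 4, 4, 7 and 5. A pseudocount of 0.1 gave 16 for IL-2 at 90 min, 17 for IL-2-REH at 4 hr, 2 and 7 for IL-2-REH against IL-2 at 90 min and 4 hr, and 5 and 10 for 4 hr against 90 min of IL-2 and IL-2-REH. In the last 4 comparisons 0 passed 2, and genes of at least 5 RPKM gave 2 for the last. Between cell types, 6 carriers passed 2. Shares of all genes are not given for the counts of this paragraph, which describe the Slc genes alone.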
